A study of Homo sapiens with 12 samples.

Results

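The genes described here are 10 members of the FOS, JUN, EGR and NR4A families of immediate early transcription factors: FOS, FOSL2, JUN, JUNB, JUND, EGR1, EGR2, NR4A1, NR4A2 and NR4A3. They were taken by name from the 55765 genes of the count table, and 7 of the 10 passed the filter on low counts that left 11474 genes for testing. The filter removed EGR2, NR4A1 and NR4A3. RNA was sequenced from OCI-AML2, a human acute myeloid leukaemia line, in clones grown from single cells and given a construct from which doxycycline switches on the transcription factor MEF2C. The 12 libraries form 4 groups of 3. S222A induced cells carried MEF2C with serine replaced by alanine and received 600 ng doxycycline in 3 ml for 48 h, and S222A uninduced cells were the same line with vehicle for 48 h. WT induced cells carried wild-type MEF2C and received the same doxycycline, and WT uninduced cells were that line with vehicle. The number of clones behind each line is not given, and each comparison between the lines is also one between clones. Cells with doxycycline but no construct were not analysed here. The labels do not state that replicates came from separate cultures, and the p-values reflect only how these libraries vary, which may be technical.

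Immediate early genes are transcribed within minutes of a signal, from promoters already bound by factors such as serum response factor and CREB, and their messenger RNAs are short-lived. FOS and JUN proteins pair through leucine zippers to form AP-1, EGR proteins bind GC-rich DNA through zinc fingers, and NR4A proteins are nuclear receptors that act without a known hormone. In myeloid cells AP-1 and EGR1 are known for roles in monocytic differentiation, and loss of NR4A1 and NR4A3 in mice is known to cause acute myeloid leukaemia. MEF2 factors are known to bind the JUN promoter in several cell types.

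The promoters of JUN, FOS and EGR1 are shown because JUN and FOS are described most closely below and EGR1 is a member whose groups overlapped throughout. A JUN difference passed the main test described below, and no FOS difference did. Each line is the last 130 bases before the gene start, 5′ to 3′ on the gene's strand, from RefSeq on GRCh38.p14. The windows are chr1:58784048-58784177 on the minus strand for JUN, chr14:75278698-75278827 on the plus strand for FOS and chr5:138465349-138465478 on the plus strand for EGR1. Capitals mark matches to the motifs searched.
JUN: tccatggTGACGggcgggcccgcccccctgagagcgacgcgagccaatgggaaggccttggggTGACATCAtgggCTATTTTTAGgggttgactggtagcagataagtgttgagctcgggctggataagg
FOS: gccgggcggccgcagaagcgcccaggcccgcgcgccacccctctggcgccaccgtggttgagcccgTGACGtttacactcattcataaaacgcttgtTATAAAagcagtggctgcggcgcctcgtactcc
EGR1: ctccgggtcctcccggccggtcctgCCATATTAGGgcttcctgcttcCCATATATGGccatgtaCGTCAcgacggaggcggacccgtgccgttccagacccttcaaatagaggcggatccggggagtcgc
The table held a promoter for 9 of the 10 members, all but NR4A2. Motifs were searched on both strands of the 250 bases before each start. The 9 members had 12 promoters, and a member was counted where any of its promoters matched. The percentages count single promoters, so the units differ. The MEF2 site was found in 1 of the 9 members, JUN, at 55 to 46 bases before the start, and in 2.8% of the 35116 promoters of the table. JUN also held the letters TGACATCA at 67 to 60 bases before the start, an AP-1-like site whose letters were added to the search after the window was read, and which 2.37% of all promoters held. The 7-letter AP-1 site TGACTCA was found in 0 of the 9 members and in 4.2% of all promoters. The CArG box, bound by serum response factor, was found in 2 members, EGR1 and EGR2, and in 1.16% of all promoters. The full cyclic AMP response element TGACGTCA was found in 1 member, JUND, and in 1.65% of all promoters, while its 5-letter part TGACG, which the full element contains, was found in 8 of the 9 and in 21.2% of all promoters. The EGR site GCGNGGGCG was found in 1 member, EGR1, and in 8.41% of all promoters, and TATAAA in 2 members, FOS and JUNB, and in 10.7%. Sites more than 250 bases before a start were not searched, so a missing match does not show that a gene lacks the site. These matches are descriptions of letters and no binding was measured.

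Library totals ranged from 875710 to 13134791 counts, and each group held 1 library of at least 5412391 counts and 2 of at most 4489036. Levels are given as counts per 1000000 counts (CPM) scaled with TMM factors, and a gene is called at a Benjamini-Hochberg adjusted p under 0.05 in edgeR's quasi-likelihood test over all 11474 genes. Every adjusted p below is from that test unless another is named. S222A uninduced replicate 3, with 930960 counts, stood apart on the third principal component at -62.5, where the other 11 libraries lay between -13.3 and 31.2. Markers of myeloid blasts summed to between 178 and 211 CPM in every library, although CD34 had 2 counts in all libraries together. Within that sum the means of single markers in the S222A induced group lay on opposite sides of the other groups. MPO averaged 2.12 CPM in S222A induced, against 7.24 CPM in S222A uninduced, 8.37 CPM in WT induced and 17.7 CPM in WT uninduced cells, and LYZ 4.75 CPM against 14.1, 7.62 and 8.55 CPM in the same order. FLT3 averaged 107 CPM in S222A induced, against 76.3, 79.8 and 70.2 CPM in those groups, and KIT 6.52 CPM against 1.01, 3.41 and 1.79 CPM. The part of these differences in the results was not tested, and the sums of the T cell, B cell, erythroid and stromal lists did not pass 5.2 CPM. Monocyte markers summed to 2.04 to 9.85 CPM, and neutrophil markers to 68.9 to 84.5 CPM in S222A induced libraries and to 81.8 to 99.8 CPM in the others, and their part in the results was not tested. The induced gene, MEF2C, was at 919.5, 956.1 and 786.3 CPM in S222A induced libraries, against 605.3, 700.6 and 801.6 CPM in S222A uninduced libraries. It was at 674.4, 844.1 and 812.4 CPM in WT induced libraries, against 746.9, 645.3 and 816.7 CPM in WT uninduced libraries. The induced and uninduced values of MEF2C overlapped in both lines, and its change was called in neither (log2 0.34 ± 0.16 (SE), adjusted p 0.285, in S222A, and 0.08 ± 0.16, adjusted p 1.00, in WT, edgeR). With a term for the deepest library of each group MEF2C was called on S222A induction (adjusted p 0.0282), the 1 of 20 alternative fits that did so. Counts per symbol do not separate construct from endogenous MEF2C reads.

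JUN, an AP-1 subunit, was lower in S222A induced than in WT induced cells. It was at 3.81, 4.91 and 4.62 CPM in S222A induced libraries, against 19.1, 17.9 and 9.74 CPM in WT induced libraries. These groups did not overlap, with every S222A library at less than the lowest WT one. Here and below, the share of all genes whose groups did not overlap was not counted, so such separation is a description only. The difference was log2 -1.77 ± 0.41 (SE, n = 3 each; 95% interval -2.66 to -0.88), with an adjusted p of 0.0247 in edgeR. Means were 4.45 ± 0.569 CPM in S222A induced and 15.6 ± 5.12 CPM in WT induced cells (SD). JUN was the 1 member called among the 7 tested in that comparison, where 6.34% of all genes tested were called. In bulk RNA, fewer cells that express a gene and less of its RNA per cell cannot be told apart.

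The same order held without doxycycline. JUN was at 6.73, 8.62 and 1.10 CPM in S222A uninduced libraries, against 21.7, 16.4 and 10.6 CPM in WT uninduced libraries. Again the groups did not overlap, but S222A replicates ranged widely, and the lowest value, in the library that stood apart, was 1 read. The difference of log2 -1.36 ± 0.42 (95% interval -2.27 to -0.45) was not called, with an adjusted p of 0.356. Of the 7 members tested, 0 were called between the uninduced lines by edgeR and 0 by DESeq2. Of all genes, edgeR called 0.392% there and DESeq2 83 of the 11474. An unadjusted p under 0.05 in edgeR was held by 1 member and by 858 of the 11474 genes. The difference between induced and uninduced cells was not called for JUN in either line. It was log2 -0.48 (95% interval -1.42 to 0.46) in S222A and -0.07 (-0.92 to 0.78) in WT. The S222A interval includes a log2 fall of 1, and the WT interval leaves out a log2 change of 1 in either direction. All 6 S222A libraries were thus below all 6 WT libraries, with a highest S222A value of 8.62 CPM and a lowest WT value of 9.74 CPM.

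The call on JUN rests on few reads and did not hold for every set of libraries. The counts behind it were 11, 22 and 58 reads in S222A induced libraries and 131, 16 and 37 reads in WT induced libraries. Without S222A induced replicate 1, 2 or 3 the adjusted p was 0.0951, 0.0801 or 0.0823, without WT induced replicate 1 or 2 it was 0.0889 or 0.0555, and without the deepest library of each group it was 0.110. The log2 difference lay between -2.06 and -1.51 over the sets that left out 1 library. In the deepest library of each of these groups it was -1.94, and in their other 4 libraries -1.51, on log2(CPM + 0.5). For JUN on induction such values were in opposite directions, at -0.50 and 0.34 in S222A and 0.22 and -0.19 in WT.

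**Figure D1:**
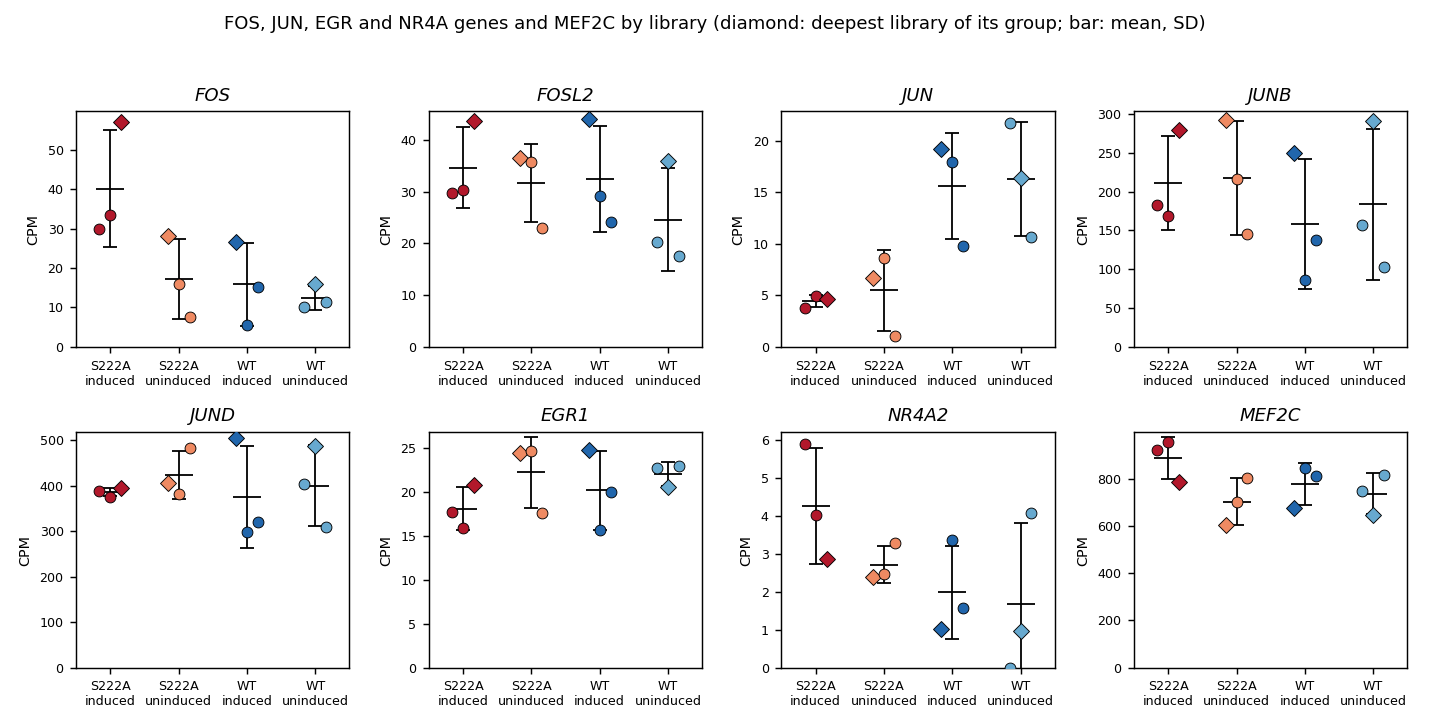
CPM (y axis, linear) of 7 members and MEF2C in each library by group (x axis), with diamonds for the deepest library of a group, circles for the others and bars for the mean and SD of 3 libraries. JUN is below 9 CPM in the S222A libraries and above 9 CPM in the WT libraries, FOS is at 29.8 to 57.1 CPM in S222A induced libraries, and the diamonds of FOS, FOSL2 and JUNB are at the top of every group.

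FOS, which cannot bind DNA as AP-1 without a partner of the JUN family, was highest in the S222A induced cells. It was at 29.8, 33.4 and 57.1 CPM in S222A induced libraries, against 28.0, 16.01 and 7.67 CPM in S222A uninduced libraries. The groups did not overlap, although the lowest induced and the highest uninduced value were close. The difference was log2 1.09 ± 0.44 (SE, n = 3 each; 95% interval 0.13 to 2.04) and was not called (adjusted p 0.197). Against WT induced libraries, at 26.6, 5.61 and 15.3 CPM, the difference was log2 1.19 ± 0.44 (95% interval 0.24 to 2.15) and was also not called (adjusted p 0.138). The WT uninduced libraries were at 10.1, 15.8 and 11.4 CPM, a range that lay inside that of the WT induced ones. The induction effect of FOS was larger in S222A than in WT by log2 0.61, with a 95% interval of -0.78 to 2.00 and an adjusted p of 0.969.

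All libraries were from 48 h, so changes in early genes before that time were not measured. Of the 7 members tested, 0 were called on induction in the S222A line by edgeR, where 4.45% of all genes were called. An unadjusted p under 0.05 was held by 1 member, FOS, and by 2193 of the 11474 genes. In the WT line 0 members were called, where 0.00872% of all genes were called, that is 1 gene. There 0 members and 195 of all genes had an unadjusted p under 0.05. For the difference of the induction effects 0 members were called, where 0.0784% of all genes were called. In that test 0 members and 766 of all genes had an unadjusted p under 0.05. DESeq2 also called 0 members in these 3 comparisons, where it called 811, 4 and 36 of the 11474 genes in the same order. The median log2 difference of the 7 members was -0.06 on S222A induction and -0.07 on WT induction, beside 0.01 and 0.01 for all genes.

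FOS was called in 3 other fits. With all genes that had a read kept, it was called on S222A induction, where 1.81% of genes were called, and between the induced lines, where 2.37% were. With a term for the deepest library of each group it was called in the same comparisons, where 17.9% and 21.6% of genes were called. Without those deepest libraries it was called in both, where 5.03% and 8.07% of genes were called. The FOS differences within depth classes were in the same direction in these comparisons. On S222A induction they were log2 1.02 between the deepest libraries of the groups compared and 1.47 between their other 4. Between the induced lines they were 1.09 and 1.71. On WT induction they were in opposite directions, at 0.73 and -0.20.

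**Figure D2:**
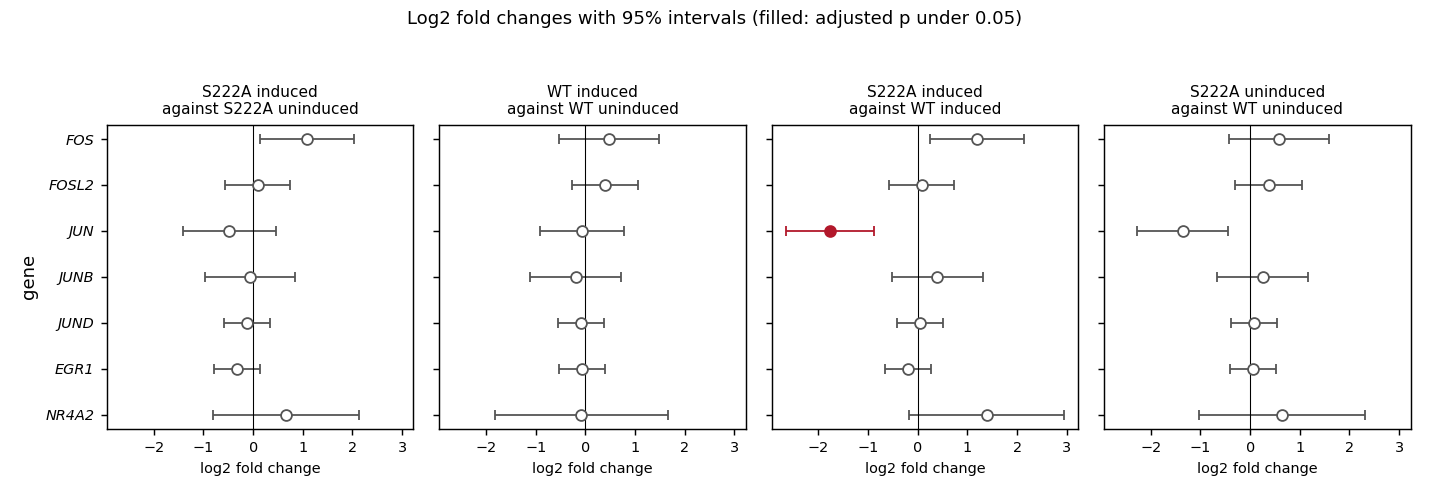
Log2 fold changes (x axis, first-named group over second) of the 7 tested members (y axis) in 4 comparisons, with 95% intervals, filled where the adjusted p was under 0.05. JUN between the induced lines, at -1.77, is the only filled point. The FOS intervals of 0.13 to 2.04 and 0.24 to 2.15 and the JUN interval between the uninduced lines also leave out 0.

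FOSL2, JUNB and FOS shared a pattern that the groups do not explain: each was highest in the deepest library of its group, in all 4 groups. JUNB was at 280, 292, 250 and 291 CPM in the deepest S222A induced, S222A uninduced, WT induced and WT uninduced libraries, and between 86.3 and 216 CPM in the other 8. These ranges did not overlap. The group means of JUNB lay between 158 and 218 CPM, a narrower range than that of the libraries within each group. FOSL2, a FOS relative, was at 35.9 to 44.0 CPM in the deepest libraries and at 17.6 to 35.7 CPM in the other 8. With a term for the deepest library, edgeR gave log2 0.90 ± 0.14 (adjusted p 8.81e-05) for JUNB, 0.89 ± 0.16 (adjusted p 0.000129) for FOS and 0.61 ± 0.13 (adjusted p 0.000766) for FOSL2. These are 3 of 7 members, beside 38.4% of all genes called for that term, so the share of members is near that of all genes. JUN (0.24 ± 0.24, adjusted p 0.452), JUND (0.29 ± 0.11, adjusted p 0.0509), EGR1 (0.18 ± 0.14, adjusted p 0.305) and NR4A2 (-0.71 ± 0.41, adjusted p 0.173) were not called for it. What the deepest libraries share beside depth is not given by the labels, and its part in these levels was not tested.

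**Figure D3:**
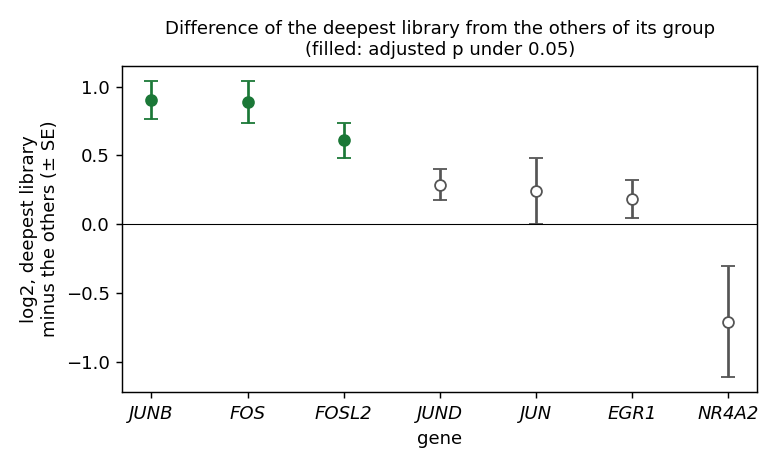
Log2 difference of the deepest library from the other 2 of its group (y axis, ± SE, 1 term fitted over all 4 groups) for the 7 tested members (x axis), filled where the adjusted p was under 0.05. JUNB, FOS and FOSL2 lie at 0.90, 0.89 and 0.61, and the other 4 are not filled.

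FOSL2 did not separate the groups otherwise. It was at 29.8, 30.3 and 43.6 CPM in S222A induced libraries, against 36.4, 35.7 and 23.0 CPM in S222A uninduced libraries, and at 44.0, 29.1 and 24.2 CPM in WT induced libraries, against 20.2, 35.9 and 17.6 CPM in WT uninduced libraries. All 4 groups overlapped. The difference on induction was log2 0.09 (95% interval -0.56 to 0.75) in S222A and 0.39 (-0.28 to 1.07) in WT.

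JUNB and JUND, which pair with FOS proteins as JUN does, were the most abundant members. JUNB was at 182.9, 169.0 and 279.8 CPM in S222A induced libraries, against 292.3, 216.3 and 146 CPM in S222A uninduced libraries. It was at 249.9, 86.3 and 138.2 CPM in WT induced libraries, against 156, 291.3 and 103 CPM in WT uninduced libraries. The intervals of its 4 group differences ran from log2 -1.11 at the lowest to 1.30 at the highest, and each of them includes 0. JUND, which is transcribed steadily in many cells, was held more closely. It was at 388.6, 376.2 and 394.2 CPM in S222A induced libraries, against 405.3, 381.3 and 482.9 CPM in S222A uninduced libraries, with a difference of log2 -0.13 (95% interval -0.59 to 0.33). In the WT line it was at 505.4, 299.3 and 321.3 CPM in induced libraries, against 403.2, 487.1 and 309 CPM in uninduced libraries, with a difference of log2 -0.09 (-0.55 to 0.38). The S222A induced libraries were close together and inside the ranges of both WT groups. The lowest of them, at 376.2 CPM, was below all S222A uninduced libraries.

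Levels of different genes were compared per kilobase of exon, with the union of exons in GENCODE 29, since the authors' annotation is not given. In S222A induced cells JUND had 207 and JUNB 116 CPM per kb, followed by FOS at 12.4, EGR1 at 5.76, FOSL2 at 4.83, JUN at 1.26 and NR4A2 at 1.07. In WT uninduced cells JUND had 215 and JUNB 101 CPM per kb, followed by EGR1 at 7.02, JUN at 4.59, FOS at 3.85, FOSL2 at 3.43 and NR4A2 at 0.424. JUND and JUNB led in all 4 groups, and the order of the lower members was not tested. The exons of JUNB overlap HOOK2 over 14.2% of their length, so without a stated strand setting some reads there cannot be assigned to one gene.

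EGR1, a zinc finger factor induced through serum response factor, showed little difference among the groups. It was at 17.7, 15.8 and 20.7 CPM in S222A induced libraries, against 24.4, 24.6 and 17.5 CPM in S222A uninduced libraries. In the WT line it was at 24.7, 15.7 and 20.0 CPM in induced libraries, against 22.7, 20.5 and 22.9 CPM in uninduced libraries. All groups overlapped. The difference was log2 -0.32 (95% interval -0.78 to 0.13) on S222A induction and -0.07 (-0.54 to 0.39) on WT induction, and both intervals leave out a log2 change of 1 in either direction. EGR2 had 19 reads in all 12 libraries together, with 5 reads at most in any of them. Its S222A induced libraries had 1, 1 and 5 reads, against 5, 2 and 0 in S222A uninduced libraries, and its WT induced libraries had 0, 0 and 4, against 1, 0 and 0 in WT uninduced libraries. These counts are too few to compare.

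The NR4A genes were at or near the limit of detection. NR4A1 was listed at 0 in all 12 libraries, of 54020244 counts in all, which allows up to 0.0555 CPM when 3 counts are taken as the limit, for counting error only. NR4A3 had 2 reads, 1 in S222A induced replicate 1 and 1 in S222A uninduced replicate 2. NR4A2 passed the filter with 131 reads, at 5.89, 4.01 and 2.87 CPM in S222A induced libraries, against 2.402, 2.46 and 3.29 CPM in S222A uninduced libraries. The WT induced libraries were at 1.02, 3.36 and 1.58 CPM, against 0, 0.966 and 4.09 CPM in WT uninduced libraries. The S222A induced values overlapped those of each other group. Its intervals were wide, for example log2 0.66 (95% interval -0.80 to 2.13) on S222A induction and 1.39 (-0.18 to 2.95) between the induced lines.

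The genes whose pattern was most like that of JUN, by the root mean square difference of centred log2 CPM over 12 libraries, were TONSL at 0.47, TMEM231 at 0.48 and SMKR1 at 0.50, beside a median of 1.14 over all other genes. TONSL averaged 4.76 ± 0.221 CPM in S222A induced and 8.36 ± 1.55 CPM in WT induced cells (SD, n = 3 each), a difference of log2 -0.75 (95% interval -1.65 to 0.15) that was not called (adjusted p 0.334). TMEM231 and SMKR1 were not called between the induced lines either (adjusted p 0.0536 and 0.0705).

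Other early response genes stood beside these members in the S222A line. Of 38 listed genes, 26 were tested, and on S222A induction 5 rose and 0 fell, where 4.45% of all genes were called. They were BTG2, DUSP4, DUSP6, ZFP36L1 and PPP1R15A. The median log2 difference of the 26 was 0.43, beside 0.01 for all genes. This list and those below were chosen with earlier results of these data known. Their counts and medians therefore describe the listed genes and do not test early genes as a set. PPP1R15A, a phosphatase subunit of the stress response, is named because only 5 were called and was chosen after its values were seen. It averaged 63.1 ± 3.34 CPM in S222A induced and 25.8 ± 3.55 CPM in S222A uninduced cells (SD, n = 3 each), a difference of log2 1.26 ± 0.19 (adjusted p 0.00309). BTG2, an antiproliferative gene, was at 137.8, 167.5 and 128.7 CPM in S222A induced libraries, against 19.8, 25.4 and 19.7 CPM in S222A uninduced libraries, a difference of log2 2.73 ± 0.18 (adjusted p 5.99e-06). DUSP4, a phosphatase that removes phosphate from MAP kinases, was at 55.4, 61.1 and 53.6 CPM in S222A induced libraries, against 8.89, 10.7 and 6.57 CPM in S222A uninduced libraries, a difference of log2 2.65 ± 0.21 (adjusted p 2.94e-05). DUSP6, which acts on ERK, rose by log2 1.52 ± 0.19 (adjusted p 0.000741), and ZFP36L1, which promotes decay of AU-rich messenger RNAs, by log2 2.10 ± 0.23 (adjusted p 0.00034). For these 4 genes the S222A induced libraries did not overlap the S222A uninduced ones, and leaving out any 1 library kept the call.

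In the WT line, where 0.00872% of all genes were called, 1 of the 26 rose, BTG2, at 21.6, 17.9 and 20.5 CPM in WT induced libraries, against 7.07, 7.53 and 7.35 CPM in WT uninduced libraries. Its adjusted p was 0.0498, and 16 of 20 alternative fits did not call it. Between the induced lines, where 6.34% of all genes were called, 7 were higher and 1 lower in S222A than in WT induced cells. The largest differences were those of ZFP36L1, BTG2 and DUSP4. The lower gene was MYC, at log2 -1.47 ± 0.38 (adjusted p 0.0389), named after its values were seen. Its call was lost in 11 of 20 alternative fits. Between the uninduced lines, where 0.392% of all genes were called, 2 were higher in S222A. These were BTG2, by log2 1.56 ± 0.20 (adjusted p 0.00297), and ZFP36L1, by log2 1.44 ± 0.26 (adjusted p 0.029). The call on ZFP36L1 was lost in 11 of 20 alternative fits, with adjusted p up to 0.208, and that on BTG2 in 1. The induction effect of DUSP4 was larger in S222A than in WT by log2 2.33 ± 0.32 (adjusted p 0.0184), a call lost in 12 of 19 alternative fits.

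**Figure D4:**
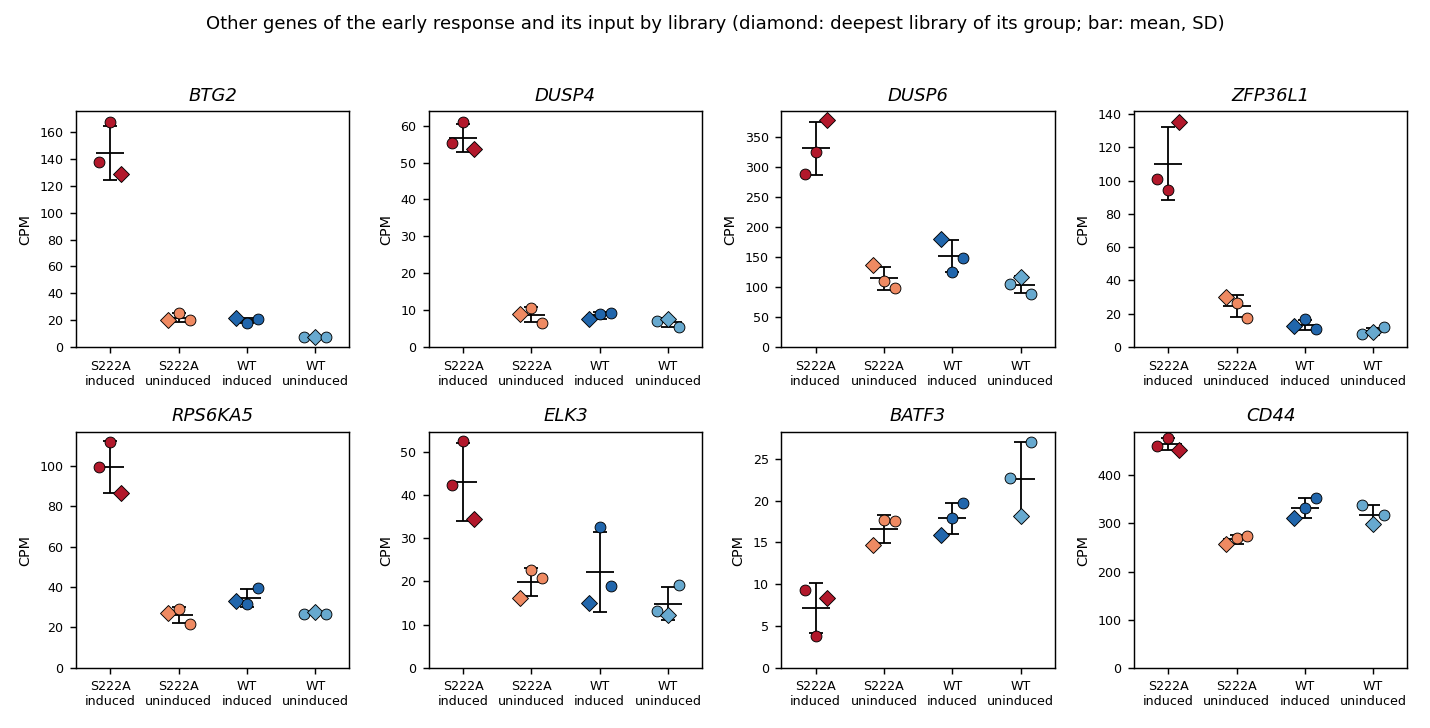
CPM (y axis, linear) of 8 other genes of the early response and its input in each library by group (x axis), with diamonds for the deepest library of a group, circles for the others and bars for the mean and SD of 3 libraries. In BTG2, DUSP4, DUSP6, ZFP36L1, RPS6KA5, ELK3 and CD44 the S222A induced libraries lie above all other libraries, and in BATF3 below them.

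Genes that act upstream or beside the members moved in few cases, and the counts in each list on S222A induction stand beside 4.45% of all genes called. Among 18 tested genes of the MAP kinase cascade 1 rose on S222A induction and 0 fell, a share near that of all genes. It was RPS6KA5, a kinase that phosphorylates CREB and histone H3 at early genes, at 99.7, 112 and 86.7 CPM in S222A induced libraries, against 27.4, 29.1 and 21.9 CPM in S222A uninduced libraries. The groups did not overlap, with a difference of log2 1.90 ± 0.17 (adjusted p 8.4e-05). Its induction effect was larger in S222A than in WT by log2 1.53 ± 0.24 (adjusted p 0.0438), a call lost in 14 of 19 alternative fits. Among 11 tested serum response, ternary complex and CREB factors 1 rose and 0 fell, ELK3, a ternary complex factor, by log2 1.14 ± 0.29 (adjusted p 0.0412), a call lost in 9 of 20 alternative fits. Among 10 other AP-1, ATF, BATF and MAF factors 0 rose and 1 fell, BATF3, a leucine zipper partner of JUN proteins, at log2 -1.19 ± 0.30 (adjusted p 0.0409), a call lost in 11 of 20. Among 7 tested MEF2 factors and class IIa deacetylases 1 rose, HDAC9, a deacetylase that binds MEF2 proteins, by log2 0.91 ± 0.18 (adjusted p 0.0137). That call was lost in 4 of 20 alternative fits, each without 1 S222A library, with adjusted p up to 0.0729. Of 2 tested EGR relatives and NAB corepressors and 13 tested nuclear receptors 0 were called on S222A induction. Between the induced lines, where 6.34% of all genes were called, 1 of the 13 nuclear receptors was higher in S222A and 0 lower. It was RXRA, by log2 0.71 ± 0.18 (adjusted p 0.0334), a call lost in 9 of 20 alternative fits. RPS6KA5, ELK3 and BATF3 were also called there, at log2 1.51, 1.06 and -1.32 (adjusted p 0.000235, 0.0444 and 0.0211). The calls on ELK3 and BATF3 were lost in 9 and 3 of 20.

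Among 14 tested genes reported as targets of AP-1, EGR1 or NR4A factors 1 rose on S222A induction and 0 fell, where 4.45% of all genes were called. CD44, an adhesion receptor, was at 461, 478 and 453 CPM in S222A induced libraries. The S222A uninduced libraries were at 257, 269 and 275 CPM, a difference of log2 0.80 ± 0.13 (adjusted p 0.00394). Between the induced lines, where 6.34% of all genes were called, CD44 was higher in S222A by log2 0.48 ± 0.13 (adjusted p 0.0392). That call was lost in 14 of 20 alternative fits. CDKN1A, a cyclin-dependent kinase inhibitor, was higher in the S222A line in both states, by log2 1.20 ± 0.20 (adjusted p 0.00478) between the induced and 1.51 ± 0.21 (adjusted p 0.005) between the uninduced lines, where the call was lost in 2 of 20 alternative fits.

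Markers of heat or handling stress, a process that can raise early genes during sampling, summed to 298 to 305 CPM in S222A induced libraries, against 422 to 590 CPM in S222A uninduced libraries, and to 383 to 432 CPM in WT induced libraries, against 425 to 463 CPM in WT uninduced libraries. All 5 markers of that list had reads, and 3 were tested. HSPH1 made up most of the sum, at 248 CPM on average in S222A induced, against 424 CPM in S222A uninduced, 358 CPM in WT induced and 396 CPM in WT uninduced cells. HSPA1B went the other way, at 4.68 CPM in S222A induced, against 2.98, 2.27 and 2.94 CPM in those groups. DNAJB1, at 48.6 CPM against 65.4, 44.2 and 43.2 CPM, lay between S222A uninduced and the WT groups. So did HSPA6, at 0.409 CPM against 0.85, 0.136 and 0.0644 CPM. HSPA1A was lowest in S222A induced cells, at 0.867 CPM against 1.89, 1.93 and 3.17 CPM. The part of handling in the members' levels was not tested.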

How the data were processed

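RNA of 12 libraries of OCI-AML2 clones was sequenced. The authors deposited raw counts per gene symbol, with no normalization. The submitters' processing notes name hg19 as build, and DESeq2, HTSeq 0.6.1 and STAR 2.4 without role or order. Annotation release and strand: not given in the sources used here. The header of the table has 1 tab fewer than its data lines, and columns were matched to samples through their names, found in the descriptions. The members and lists were chosen with earlier results of these data known.

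Genes were kept by filterByExpr (minimum count 10) and tested in R 4.3.3 with edgeR 4.0.16 (TMM factors, robust quasi-likelihood, 1 mean for each of 4 groups over all 12 libraries, 8 residual degrees of freedom). P-values were adjusted by Benjamini-Hochberg over the 11474 genes, and a gene was called at 0.05. SE is |log2 fold change| over the root of F. The biological coefficient of variation was 24.8%. The script was tested on simulated data. DESeq2 1.42.0, other scalings, no filter, a replicate block, a term for or removal of the deepest libraries, the compared libraries alone and each library left out were alternatives. MEF2C and all members are named, as are up to 4 called genes per list with the smallest adjusted p on S222A induction and up to 2 in each other comparison. Within groups, all 12 pairs of libraries differed beyond sampling noise (chi-square per degree of freedom 2.64 to 35.2).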

Additional observations from a re-analysis of the deposited data

Results flagged for a closer look

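The induction effect of 2 genes of the early response differed between the S222A and WT lines in the test of that difference itself. DUSP4, a phosphatase of MAP kinases, had an effect larger in S222A by log2 2.33 ± 0.32 (SE, adjusted p 0.0184, edgeR), and 12 of 19 alternative fits did not call it. RPS6KA5, a kinase acting on CREB and histone H3, had an effect larger in S222A by log2 1.53 ± 0.24 (adjusted p 0.0438, edgeR), and 14 of 19 alternative fits did not call it. For both genes all alternatives gave the same direction, with log2 2.20 to 2.47 for DUSP4 and 1.45 to 1.64 for RPS6KA5 when 1 library was left out.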

How the results depend on the processing

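The number of members called on S222A induction was 0 and became 1 with no filter, with a term for the deepest library of each group and without those libraries, and the member was FOS each time. Between the induced lines it was 1 (JUN) and became 2 (FOS and JUN) with no filter and with the depth term, and without the deepest libraries it was 1, FOS in place of JUN. Leaving out 1 library gave between 0 and 1 members there, and 0 in the other 4 comparisons. The adjusted p of JUN between the induced lines was 0.000193 to 0.110 over 20 alternatives, and it was above 0.05 in 6 of them. Of the 34 member values not called, 18 changed sign in at least 1 alternative, in 44 of 670 values, and 6 of those 670 values were called. With a replicate block, JUN between the induced lines had an adjusted p of 0.0406 and no member's call changed. Same-numbered libraries correlated between -0.53 and 0.64 over 18 pairs, with 6 above 0.1. These correlations also carry the difference of the deepest libraries, which do not all bear the same number. They therefore cannot show whether the numbers pair the samples. Over all genes, 511 were called on S222A induction, against 235 with the replicate block, 811 by DESeq2 and 2052 with the depth term, and between the induced lines 727, against 350, 1012 and 2480. With no filter the median log2 difference of all genes moved to 0.12 and 0.11 in these comparisons. The cause of these shifts was not tested. Depth limits the comparison of JUN, NR4A2 and EGR2, with 507, 131 and 19 reads in all libraries.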
